A study of Homo sapiens with 12 samples.

Results

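The genes described here are a set of 42 that make up the NRF2 pathway and the enzymes that remove oxidants: the proteins that control NRF2, thioredoxins, peroxiredoxins, glutathione enzymes, glutaredoxins, peroxidases, haem and iron genes, and quinone and carbonyl reductases. They were picked by gene symbol, and 41 of the 42 were found in a deposited table of 61466 genes. No row named SOD2, the mitochondrial superoxide dismutase, was found, so that gene was not analysed here. The RNA came from SU-DHL-8 and Farage, 2 established human lines of diffuse large B cell lymphoma whose genotype is labelled as wild type. The 4 groups were SU-DHL-8 with morusinol, SU-DHL-8 control, Farage with morusinol and Farage control, each sampled at 12 h, with 3 libraries in each group (12 in total). Morusinol is a flavonoid with a prenyl side chain that mulberry trees make. The sources used here do not give its dose, what the controls received or whether the libraries came from separate cultures. The p-values below therefore measure only the spread between these libraries, and each line is a single model of the disease.

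NRF2 is the product of NFE2L2, a transcription factor that KEAP1 holds in the cytoplasm and passes to the proteasome. Oxidants and electrophiles that react with cysteines of KEAP1 let NRF2 build up, pair with a small MAF protein and bind antioxidant response elements near its target genes, where BACH1 competes with it as a repressor. The thioredoxin and glutathione systems both draw electrons from NADPH. They reduce peroxides and oxidised proteins, and in dividing cells such as lymphoma cells they also supply electrons to ribonucleotide reductase.

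Values are FPKM, fragment counts divided by the length of the gene and by library depth, so levels may be compared between genes. FPKM summed to 346099 to 429757 per library, so a value is not a share of a fixed total. A gene was called higher or lower when its difference on the log2(FPKM + 1) scale had an adjusted p under 0.05 over the 17574 genes tested. The scale understates the change of genes near 1 FPKM. Fold changes are given as log2 fold changes of FPKM + 1, morusinol over control, ± SE, and means are ± SD with n = 3 libraries. Depth, estimated from the steps between low values, was 6.05 to 14.96 M fragments (M, mega) in SU-DHL-8 with morusinol, against 14.2 to 15.2 M in its controls, and 9.37 to 12.7 M in Farage with morusinol, against 16.6 to 19.0 M in its controls. Across genes, log2 values correlated with Pearson r of 0.964 to 0.980 within a group, 0.922 to 0.937 between treatments of a line and 0.726 to 0.796 between lines. All 6 B lymphocyte markers were present, and their summed FPKM was 230.1 to 238 in SU-DHL-8 with morusinol, against 354 to 368 in its controls, and 613 to 659.9 in Farage with morusinol, against 966 to 1021 in its controls. In SU-DHL-8 4 of the 6 were called lower and 2 higher (CD79B and PAX5), and in Farage 5 were called lower and 0 higher. The part of these differences in depth and in B cell markers in the results below was not tested. The summed FPKM of 8 T and NK cell, 8 myeloid, 8 erythroid and platelet and 8 stromal and epithelial markers was at most 6.10 in any library, and HBB was at 0 throughout. In bulk RNA, fewer cells that express a gene and less RNA per cell cannot be told apart.

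Of the 41 genes, 36 were at 1 FPKM or more in every library. The filter (1 FPKM or more in at least 3 libraries) removed ME1, the cytosolic malic enzyme, whose highest value was 0.148 FPKM. SRXN1 passed it only through SU-DHL-8, OSGIN1 only through SU-DHL-8 controls, and GSTP1 and HMOX1 only through Farage. A difference that sets OSGIN1 in SU-DHL-8 controls against other groups, or these 4 genes in 1 line against the other, was in part required by the filter and is given as levels with no test. This left 40 genes tested, and the counts below include the calls of these 4, which were 3 of those lower in SU-DHL-8 (HMOX1, OSGIN1 and SRXN1), 2 of those higher in Farage (HMOX1 and SRXN1) and 1 of those lower in Farage (GSTP1).

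In SU-DHL-8, morusinol was followed by lower RNA of most of these genes and in Farage by changes in both directions. In SU-DHL-8, 5 of the 40 genes were called higher and 25 lower, against 25.1% and 21.6% of all genes tested (46.8% in either direction), so that 12.5% of these genes rose and 62.5% fell. Their median log2 fold change was -0.37, against 0.02 for all genes. In Farage 15 were called higher and 16 lower, 37.5% and 40% of the genes, against 21.9% and 21.2% of all genes (43.1% in either direction), and the median was 0.02, against -0.03 for all genes. Well expressed genes were called more often: among the 8908 genes at 5 FPKM or more in at least 3 libraries, 30.8% were called higher and 36.3% lower in SU-DHL-8, and 33.1% and 30.5% in Farage. Of the antioxidant genes, 36 pass this stricter filter, with GSTP1, HMOX1 and MSRB2 passing through Farage alone. Of these 36, 16.7% were called higher and 63.9% lower in SU-DHL-8, and 36.1% and 44.4% in Farage. The shares in Farage thus lay nearer to the background than those in SU-DHL-8. Treated and control values did not overlap, with morusinol above, for 7 genes in SU-DHL-8 (background 29.2%) and 16 in Farage (25.8%), and with morusinol below for 25 (24.9%) and 16 (25.3%).

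**Figure D1:**
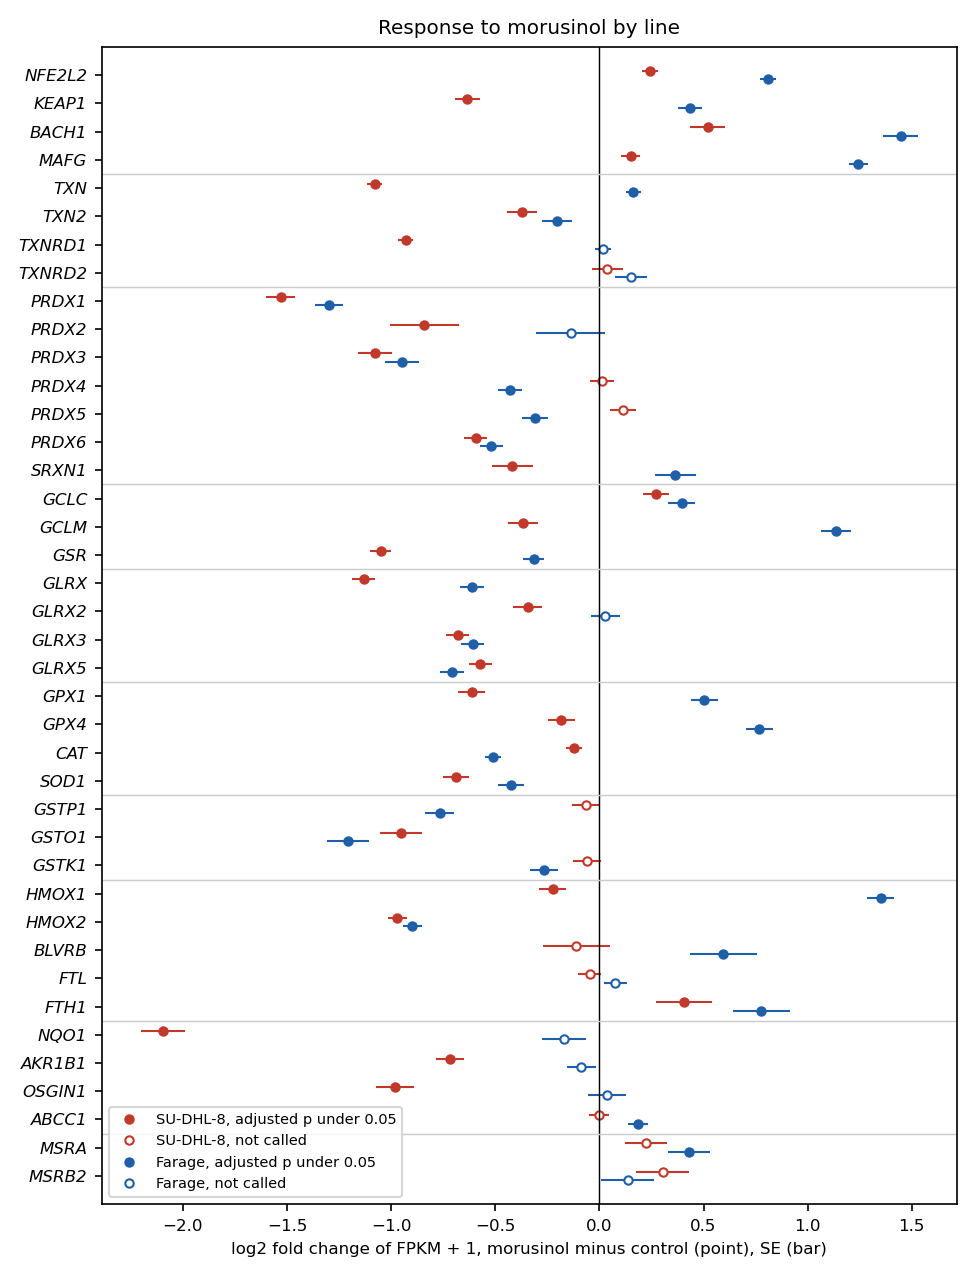
Log2 fold change of FPKM + 1, morusinol over control, of each tested gene in SU-DHL-8 and in Farage, ordered by role, with bars for 1 SE from a fit over all 12 libraries. Most SU-DHL-8 points lie left of 0, down to -2.10 for NQO1, while Farage points lie on both sides, up to 1.45 for BACH1.

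By line and direction the genes fell into a few sets. BACH1, FTH1, GCLC, MAFG and NFE2L2 (5 genes) were called higher in both lines (12.5% of the 40, against 11.5% of all genes tested), and 12 were called lower in both (30%, against 11.1%): CAT, GLRX, GLRX3, GLRX5, GSR, GSTO1, HMOX2, PRDX1, PRDX3, PRDX6, SOD1 and TXN2. In 7, namely GCLM, GPX1, GPX4, HMOX1, KEAP1, SRXN1 and TXN, the call was lower in SU-DHL-8 and higher in Farage (17.5%, against 2.55%). HMOX1 counts in this share, but all 6 of its SU-DHL-8 values were under 0.3 FPKM. Its call there is not read as a response, which leaves 6 genes. AKR1B1, GLRX2, NQO1, OSGIN1, PRDX2 and TXNRD1 (6 genes) were called lower in SU-DHL-8 and not called in Farage (15%, against 7.94%). OSGIN1 counts in that share, but it passed the filter only through SU-DHL-8 controls, so its call is not read as a response. No gene of the set was called higher in SU-DHL-8 and lower in Farage, as 1.71% of all genes were. These joint shares of all genes were not taken at 5 FPKM or more, where calls were more frequent. The calls of 23 of the 30 genes in SU-DHL-8 and of 30 of the 31 in Farage held under all 9 other settings of the analysis and all 12 fits that left out 1 library, wherever the gene was tested. In SU-DHL-8 the exceptions were NFE2L2, MAFG, GCLC and FTH1 among the rises, and HMOX1, GPX4 and CAT among the falls. After rescaling to TPM, which gives every library the same sum, 1 rise in SU-DHL-8 was left, that of BACH1. Without SU-DHL-8 control replicate 1 or SU-DHL-8 control replicate 2 the number of rises there was 3.

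A promoter window from RefSeq (GRCh38.p14, 250 bases before to 50 after the gene start) was matched for 31 of the 41 genes. The core of the antioxidant response element, TGACNNNGC on either strand, was present in 7 of the 45 windows of these genes (15.6%), which belong to 6 genes, and in 4687 of 35116 promoter windows of all genes (13.4%). The windows of 4 genes are shown because they carry these letters and the genes responded unlike each other: GCLM and KEAP1 were called lower in SU-DHL-8 and higher in Farage, TXNRD1 was lower in SU-DHL-8 with no call in Farage, and GSTP1 was near 0 in SU-DHL-8 and lower with morusinol in Farage. Capitals mark matches to the core on either strand, as the reverse complement where they lie on the other one. The lines give, in this order, the GCLM window (chr1:93909381-93909680, minus strand), the KEAP1 window (chr19:10502722-10503021, minus strand), the first of the TXNRD1 windows (chr12:104215529-104215828, plus strand) and the GSTP1 window (chr11:67583562-67583861, plus strand).
GCLM: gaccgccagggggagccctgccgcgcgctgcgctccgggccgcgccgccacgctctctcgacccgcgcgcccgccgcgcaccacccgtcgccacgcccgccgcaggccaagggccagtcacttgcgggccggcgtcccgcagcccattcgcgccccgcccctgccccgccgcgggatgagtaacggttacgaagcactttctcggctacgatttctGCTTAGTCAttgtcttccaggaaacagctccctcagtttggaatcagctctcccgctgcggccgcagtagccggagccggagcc
KEAP1: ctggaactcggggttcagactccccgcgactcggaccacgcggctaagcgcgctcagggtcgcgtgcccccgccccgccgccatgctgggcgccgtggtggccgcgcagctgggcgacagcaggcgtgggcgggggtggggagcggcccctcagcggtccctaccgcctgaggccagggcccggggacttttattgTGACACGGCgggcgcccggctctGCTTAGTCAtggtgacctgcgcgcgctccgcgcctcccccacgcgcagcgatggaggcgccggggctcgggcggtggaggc
TXNRD1: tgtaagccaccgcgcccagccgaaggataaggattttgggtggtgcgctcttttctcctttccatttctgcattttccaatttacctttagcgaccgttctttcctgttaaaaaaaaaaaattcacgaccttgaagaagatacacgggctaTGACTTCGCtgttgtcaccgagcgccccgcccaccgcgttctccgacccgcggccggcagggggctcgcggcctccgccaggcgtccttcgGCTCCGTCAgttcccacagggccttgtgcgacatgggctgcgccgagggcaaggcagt
GSTP1: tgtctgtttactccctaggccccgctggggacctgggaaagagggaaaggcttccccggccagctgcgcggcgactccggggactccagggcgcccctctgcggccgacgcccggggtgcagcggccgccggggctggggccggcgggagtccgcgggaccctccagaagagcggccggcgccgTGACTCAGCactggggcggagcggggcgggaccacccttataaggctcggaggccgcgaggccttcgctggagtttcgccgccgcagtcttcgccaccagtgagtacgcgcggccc

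GCLM has 1 match, 34 bases before its start, KEAP1 has 2, and this TXNRD1 window has 2. The GSTP1 match also holds TGACTCA, the letters of an AP-1 site, so the 2 motifs overlap there. The other genes with a match were GSTO1 and ME1. A match is a description of the letters and not a bound site, and a window with none says only that the letters are not in these 300 bases.

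The genes that control NRF2 were called higher in Farage in 4 of 4 cases, and in SU-DHL-8 3 were called higher and 1 lower. Of all genes, 21.9% were higher in Farage, and 25.1% were higher and 21.6% lower in SU-DHL-8. At 5 FPKM or more these background shares were 33.1% in Farage, and 30.8% and 36.3% in SU-DHL-8. NFE2L2 (chr2:177227595-177392697, GRCh38, minus strand), which encodes NRF2, had 38.2, 39.1 and 38.0 FPKM in Farage with morusinol, against 21.2, 22.1 and 21.2 FPKM in Farage controls. In SU-DHL-8 it had 20.9, 20.2 and 20.1 FPKM with morusinol, against 16.3, 17.96 and 17.1 FPKM in controls. Treated libraries were above controls in both lines, and the log2 fold change was 0.81 ± 0.039 (adjusted p = 9.5e-08) in Farage and 0.24 ± 0.039 (adjusted p = 4.2e-04) in SU-DHL-8. The smaller rise was lost after rescaling to TPM (adjusted p = 0.0785). NFE2L2 overlaps AGPS on the opposite strand, which reached 10.5 FPKM, and the sources used here do not give the strand of counting.

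KEAP1 (chr19:10486120-10503741, minus strand), the adaptor that delivers NRF2 for degradation, moved in opposite directions. It had 21.5, 22.2 and 20.7 FPKM in SU-DHL-8 with morusinol, against 35.0, 31.8 and 34.7 FPKM in its controls. Farage libraries held KEAP1 at 22.2, 21.3 and 19.9 FPKM with morusinol, against 16.3, 14.4 and 15.4 FPKM in controls. The groups did not overlap in either line. KEAP1 fell in SU-DHL-8, with a log2 fold change of -0.63 ± 0.058 (adjusted p = 7.0e-06), and rose in Farage, with 0.44 ± 0.058 (adjusted p = 1.5e-04). Control libraries of SU-DHL-8 were the highest of the 4 groups, and those of Farage the lowest.

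BACH1, the repressor that competes with NRF2, had 34.3, 32.3 and 36.8 FPKM in Farage with morusinol, against 10.5, 13.4 and 12.1 FPKM in controls, the widest rise of the set in that line at 1.45 ± 0.083 (adjusted p = 3.6e-07). In SU-DHL-8, BACH1 had 15.4, 16.5 and 15.8 FPKM with morusinol, against 11.2, 11.4 and 9.88 FPKM in controls, and rose by 0.52 ± 0.083 (adjusted p = 4.2e-04). The control levels of the lines were close, and the treated ones were not. MAFG, a small MAF partner of both NRF2 and BACH1, had 19.9, 19.4 and 18.6 FPKM in Farage with morusinol, against 7.44, 7.61 and 7.66 FPKM in controls, a rise of 1.24 ± 0.046 (adjusted p = 1.6e-08). Its SU-DHL-8 values were 11.1, 11.04 and 11.8 FPKM with morusinol, against 9.72, 9.81 and 10.8 FPKM in controls. These groups were separated by less than 1 FPKM, and the rise of 0.15 ± 0.046 (adjusted p = 0.0208) was lost after rescaling to TPM (adjusted p = 0.456), under 2 other settings, and without SU-DHL-8 morusinol replicate 3, SU-DHL-8 control replicate 1 or SU-DHL-8 control replicate 2 (adjusted p = 0.0719 to 0.0825). MAFG overlaps SIRT7 on the same strand, which reached 7.47 FPKM.

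In the thioredoxin system 3 of 4 genes were called lower in SU-DHL-8 and none higher, while Farage had 1 in each direction. Of all genes, 21.6% were lower and 25.1% higher in SU-DHL-8, and 21.2% and 21.9% in Farage. At 5 FPKM or more these background shares were 36.3% and 30.8% in SU-DHL-8, and 30.5% and 33.1% in Farage. TXN (chr9:110243811-110256640, minus strand), cytosolic thioredoxin, which passes electrons to peroxiredoxins and ribonucleotide reductase, was abundant. SU-DHL-8 libraries with morusinol had 109, 109 and 110.0 FPKM of TXN, against 229.9, 238 and 229 FPKM in controls. In Farage TXN was 383, 379 and 370.0 FPKM with morusinol, against 322, 339 and 349.8 FPKM in controls. The SU-DHL-8 mean was 2.12-fold lower with morusinol (-1.08 ± 0.035, adjusted p = 4.4e-09), and the small Farage rise of 0.16 ± 0.035 (adjusted p = 0.0034) also came without overlap. Its 7 processed copies summed to at most 7.5 FPKM as group means, far under the gene itself.

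TXNRD1 (chr12:104215779-104350305, plus strand), the cytosolic selenoenzyme that reduces thioredoxin with NADPH, had 47.2, 48.0 and 47.6 FPKM in SU-DHL-8 with morusinol, against 92.6, 95.4 and 87.1 FPKM in controls. Farage had 43.9, 46.1 and 43.8 FPKM of TXNRD1 with morusinol, against 43.4, 44.4 and 44.4 FPKM in controls. Treated SU-DHL-8 libraries thus lay a little above the level of Farage, where treated and control values interleaved. The log2 fold change was -0.93 ± 0.037 (adjusted p = 1.7e-08) in SU-DHL-8 and 0.02 ± 0.037 (adjusted p = 0.767) in Farage. TXN2, the mitochondrial thioredoxin, averaged 31.7 ± 2.77 FPKM in SU-DHL-8 with morusinol and 41.4 ± 3.40 FPKM in controls, a change of -0.37 ± 0.073 (adjusted p = 0.0015). Its Farage log2 fold change of -0.21 ± 0.073 (adjusted p = 0.0429) was lost after rescaling to TPM (adjusted p = 0.0753), under 3 other settings, and in 6 of 12 fits without 1 library, which left out SU-DHL-8 morusinol 3, SU-DHL-8 control 3, Farage morusinol 2 or 3 or Farage control 1 or 3 (adjusted p = 0.0509 to 0.122). TXNRD2, its mitochondrial reductase, was not called in either line, with 0.04 ± 0.075 (adjusted p = 0.749) in SU-DHL-8 and 0.15 ± 0.075 (adjusted p = 0.134) in Farage.

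Peroxiredoxins are the enzymes through which thioredoxin removes hydrogen peroxide. Of the 7 genes in this group, which includes sulfiredoxin, 5 were called lower in each line (71.4%). The share of all genes was 21.6% in SU-DHL-8 and 21.2% in Farage. Among genes at 5 FPKM or more it was 36.3% and 30.5%. PRDX1 (chr1:45511036-45523047, minus strand), the main cytosolic form, had 97.8, 95.2 and 103 FPKM in SU-DHL-8 with morusinol, against 283, 307 and 271 FPKM in controls. Farage showed much the same levels, with 121, 122 and 114 FPKM of PRDX1 with morusinol, against 286, 272 and 326 FPKM in controls. The means were 2.91-fold lower in SU-DHL-8 (-1.53 ± 0.069, adjusted p = 3.8e-08) and 2.48-fold lower in Farage (-1.30 ± 0.069, adjusted p = 2.0e-07), and a difference between the falls was not called (0.23 ± 0.098, adjusted p = 0.0956). That difference was called without Farage control replicate 3 (adjusted p = 0.0177).

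PRDX3, the mitochondrial peroxiredoxin, had 43.1, 45.1 and 42.3 FPKM in SU-DHL-8 with morusinol, against 95.5, 98.4 and 85.1 FPKM in controls. In Farage PRDX3 had 29.4, 26.5 and 27.6 FPKM with morusinol, against 48.9, 53.6 and 61.7 FPKM in controls. No treated value reached a control value in either line, and the log2 fold changes were -1.08 ± 0.082 (adjusted p = 1.7e-06) in SU-DHL-8 and -0.95 ± 0.082 (adjusted p = 6.3e-06) in Farage. PRDX6, which reduces phospholipid peroxides with glutathione, also fell in both, with -0.59 ± 0.056 (adjusted p = 8.7e-06) in SU-DHL-8 and -0.52 ± 0.056 (adjusted p = 3.2e-05) in Farage. PRDX2, a second cytosolic form, averaged 18.2 ± 0.499 FPKM in SU-DHL-8 with morusinol and 33.4 ± 1.27 FPKM in controls, a change of -0.84 ± 0.17 (adjusted p = 0.0017). Its Farage libraries with morusinol had 4.66, 7.22 and 3.44 FPKM, a spread that took in all the control values of 5.54, 5.36 and 5.63 FPKM, and it was not called (-0.14 ± 0.17, adjusted p = 0.556). Without Farage morusinol replicate 2, the high one, the call was lower (-0.38, adjusted p = 0.0076). The 4 processed copies of PRDX2 summed to 2.74 FPKM in Farage with morusinol and 3.82 FPKM in Farage controls as group means, where the gene averaged 5.11 ± 1.93 FPKM and 5.51 ± 0.141 FPKM, so its level in Farage is uncertain.

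PRDX4 of the endoplasmic reticulum and PRDX5, found in mitochondria, peroxisomes and cytosol, were called lower in Farage and not in SU-DHL-8. The Farage log2 fold changes were -0.43 ± 0.058 (adjusted p = 1.6e-04) for PRDX4 and -0.31 ± 0.062 (adjusted p = 0.0022) for PRDX5. In SU-DHL-8 the values were 0.01 ± 0.058 (adjusted p = 0.904) for PRDX4 and 0.11 ± 0.062 (adjusted p = 0.167) for PRDX5, and PRDX5 was called higher there when libraries were scaled to the sum of protein-coding genes (0.19, adjusted p = 0.0176). For both, the difference between the lines was itself called, at -0.44 ± 0.082 (adjusted p = 0.002) for PRDX4 and -0.42 ± 0.088 (adjusted p = 0.0039) for PRDX5. SRXN1, sulfiredoxin, which repairs over-oxidised peroxiredoxins, was low and moved the opposite way in the 2 lines. It had 2.11, 1.76 and 1.76 FPKM in SU-DHL-8 with morusinol, against 3.36, 2.62 and 2.58 FPKM in controls. Farage had 0.875, 0.760 and 0.868 FPKM of SRXN1 with morusinol, against 0.417, 0.436 and 0.417 FPKM in controls. Both pairs of groups were separate, with a change of -0.42 ± 0.099 (adjusted p = 0.0053) and a rise of 0.37 ± 0.099 (adjusted p = 0.0126) at levels where the added 1 FPKM shrinks the change.

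**Figure D2:**
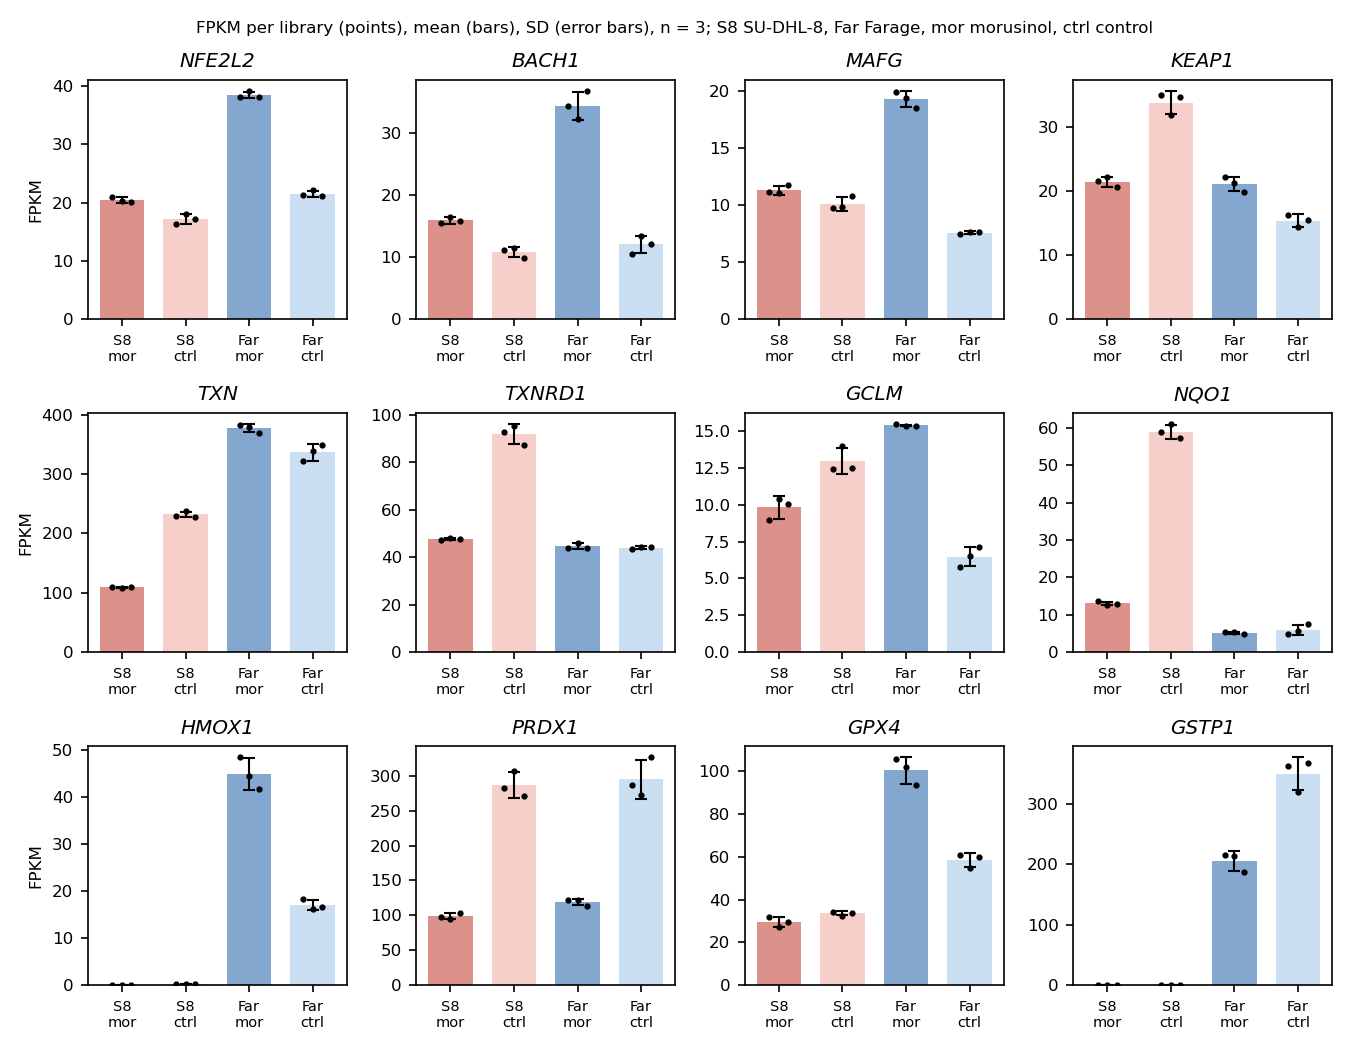
FPKM of selected genes in each of the 12 libraries, 1 panel per gene, with a point per library, a bar from 0 to the mean of each group (S8 is SU-DHL-8, Far is Farage) and error bars of 1 SD. PRDX1 is lower with morusinol in both lines, TXN and NQO1 are lower in SU-DHL-8, and GCLM and KEAP1 move in opposite directions in the 2 lines.

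Glutathione synthesis begins with glutamate-cysteine ligase, and its 2 subunits did not move together in SU-DHL-8. GCLM (chr1:93885205-93909456, minus strand), the modifier subunit, had 8.98, 10.4 and 10.04 FPKM in SU-DHL-8 with morusinol, against 12.4, 13.97 and 12.5 FPKM in controls. Farage had 15.5, 15.3 and 15.4 FPKM of GCLM with morusinol, against 5.79, 6.51 and 7.12 FPKM in controls. Farage controls lay under SU-DHL-8 controls and treated Farage libraries above them, with treated and control groups separate in both lines. It fell in SU-DHL-8 (-0.37 ± 0.073, adjusted p = 0.0018) and rose in Farage (1.14 ± 0.073, adjusted p = 8.0e-07), where the mean was 2.38-fold higher. GCLC, the catalytic subunit, averaged 18.5 ± 1.37 FPKM in SU-DHL-8 with morusinol and 15.2 ± 0.629 FPKM in controls, and 10.7 ± 0.182 FPKM in Farage with morusinol and 7.88 ± 0.661 FPKM in controls. It rose by 0.27 ± 0.065 (adjusted p = 0.0054) in SU-DHL-8, a call lost after rescaling to TPM (adjusted p = 0.0772), and by 0.40 ± 0.065 (adjusted p = 5.9e-04) in Farage.

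GSR (chr8:30678061-30727999, minus strand), the reductase that returns oxidised glutathione to its reduced form, had 31.7, 29.7 and 29.8 FPKM in SU-DHL-8 with morusinol, against 63.1, 69.0 and 60.3 FPKM in controls. In Farage GSR had 34.9, 35.8 and 33.8 FPKM with morusinol, against 45.2, 43.0 and 42.6 FPKM in controls. Treated libraries of both lines lay between 29.7 and 35.8 FPKM. The log2 fold change was -1.05 ± 0.051 (adjusted p = 6.0e-08) in SU-DHL-8 and -0.32 ± 0.051 (adjusted p = 5.4e-04) in Farage. The difference between these responses was 0.74 ± 0.072 (adjusted p = 3.3e-05).

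Glutaredoxins use glutathione to reduce protein disulfides or to carry iron-sulfur clusters. All 4 were called lower in SU-DHL-8 and 3 of 4 in Farage (all genes, 21.6% and 21.2%, and at 5 FPKM or more 36.3% and 30.5%). GLRX, the cytosolic enzyme, had 6.23, 5.77 and 5.22 FPKM in SU-DHL-8 with morusinol, against 13.9, 13.9 and 13.4 FPKM in controls. GLRX in Farage was 10.4, 10.5 and 10.5 FPKM with morusinol, against 15.5, 17.4 and 16.8 FPKM in controls. Both falls were without overlap, and that in SU-DHL-8 (-1.13 ± 0.057, adjusted p = 7.9e-08) was larger than that in Farage (-0.61 ± 0.057, adjusted p = 1.1e-05) by 0.52 ± 0.081 (adjusted p = 6.8e-04). GLRX3 and GLRX5, which serve iron-sulfur cluster transfer in the cytosol and in mitochondria, fell in both lines to a similar extent. GLRX3 fell, with -0.68 ± 0.055 (adjusted p = 2.6e-06) in SU-DHL-8 and -0.61 ± 0.055 (adjusted p = 8.5e-06) in Farage, and GLRX5, with -0.57 ± 0.057 (adjusted p = 1.2e-05) and, in Farage, -0.71 ± 0.057 (adjusted p = 3.5e-06). GLRX2, the mitochondrial glutaredoxin, fell in SU-DHL-8 (-0.34 ± 0.070, adjusted p = 0.0021) and had 0.03 ± 0.070 (adjusted p = 0.787) in Farage, but it overlaps TROVE2 on the opposite strand, a gene that reached 53.5 FPKM.

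Glutathione peroxidases were called lower in SU-DHL-8 and higher in Farage. GPX1, the cytosolic and mitochondrial peroxidase, had 21.9, 24.3 and 22.1 FPKM in SU-DHL-8 with morusinol, against 33.4, 35.2 and 37.4 FPKM in controls. For Farage, GPX1 was 31.1, 29.5 and 29.9 FPKM with morusinol, against 19.9, 20.05 and 23.1 FPKM in controls. Groups were separate in both lines, with a change of -0.61 ± 0.065 (adjusted p = 2.1e-05) and a rise of 0.50 ± 0.065 (adjusted p = 1.2e-04). GPX4, which reduces lipid peroxides in membranes and thereby restrains ferroptosis, had 106, 102 and 93.7 FPKM in Farage with morusinol, against 60.7, 54.95 and 60.1 FPKM in controls, a rise of 0.77 ± 0.065 (adjusted p = 5.7e-06). In SU-DHL-8 GPX4 had 31.8, 27.0 and 29.6 FPKM with morusinol, against 34.4, 32.5 and 33.8 FPKM in controls. Those groups lay within 1 FPKM of each other at their edges, and the change of -0.18 ± 0.065 (adjusted p = 0.0409) was lost in 7 of 12 fits without 1 library (adjusted p = 0.0518 to 0.152) and in 5 of 9 other settings. The libraries whose loss ended that call were SU-DHL-8 morusinol 2 and 3, all 3 SU-DHL-8 controls, Farage morusinol 2 and Farage control 3.

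SOD1, the copper and zinc superoxide dismutase, averaged 68.7 ± 2.32 FPKM in SU-DHL-8 with morusinol and 111 ± 4.16 FPKM in controls, and 86.7 ± 2.79 FPKM in Farage with morusinol and 117 ± 11.6 FPKM in controls. It fell in both lines, with -0.69 ± 0.064 (adjusted p = 7.4e-06) and, in Farage, -0.43 ± 0.064 (adjusted p = 3.2e-04). CAT, peroxisomal catalase, averaged 11.8 ± 0.134 FPKM in Farage with morusinol and 17.2 ± 0.607 FPKM in controls, a change of -0.51 ± 0.039 (adjusted p = 2.5e-06). Its SU-DHL-8 change was small (-0.12 ± 0.039, adjusted p = 0.0231) and was lost under 5 of 9 other settings (adjusted p = 0.05 to 0.282) and without SU-DHL-8 morusinol 1 or 3 or SU-DHL-8 control 1 or 2 (adjusted p = 0.0624 to 0.0887).

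The 3 glutathione transferases tested, which conjugate glutathione to electrophiles or act as related reductases, were all called lower in Farage. There 21.2% of all genes and 30.5% of those at 5 FPKM or more were lower. GSTP1 (chr11:67583595-67586656, plus strand), the pi class enzyme, had 215, 214 and 187 FPKM in Farage with morusinol, against 363, 319 and 367 FPKM in controls, a change of -0.77 ± 0.068 (adjusted p = 7.8e-06) with separate groups. In SU-DHL-8 the gene was listed at 0 in all libraries with morusinol, and its controls had 0, 0.0998 and 0.0383 FPKM. No response could be read from such values. GSTO1, the omega class enzyme, had 18.2, 17.4 and 16.2 FPKM in SU-DHL-8 with morusinol, against 32.2, 39.3 and 32.2 FPKM in controls. Farage held GSTO1 at 13.6, 13.5 and 12.2 FPKM with morusinol, against 30.02, 28.7 and 36.4 FPKM in controls. It fell in both lines without overlap, with -0.95 ± 0.10 (adjusted p = 1.9e-05) in SU-DHL-8 and -1.21 ± 0.10 (adjusted p = 4.5e-06) in Farage. GSTK1, the mitochondrial and peroxisomal kappa enzyme, fell, with -0.27 ± 0.066 (adjusted p = 0.0076) in Farage and had -0.06 ± 0.066 (adjusted p = 0.525) in SU-DHL-8.

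Haem oxygenases open the haem ring and release iron, carbon monoxide and biliverdin. The inducible form HMOX1 (chr22:35380361-35394214, plus strand), a target of both NRF2 and BACH1, had 48.4, 44.4 and 41.8 FPKM in Farage with morusinol, against 18.2, 16.2 and 16.5 FPKM in controls. The mean was 2.64-fold higher (1.35 ± 0.067, adjusted p = 1.1e-07). SU-DHL-8 libraries had 0.0765, 0.0716 and 0 FPKM of HMOX1 with morusinol, against 0.199, 0.275 and 0.205 FPKM in controls. All 6 values lay under 0.3 FPKM, and the call of lower (-0.23 ± 0.067, adjusted p = 0.0173) was lost without SU-DHL-8 morusinol replicate 3 (adjusted p = 0.0614) or SU-DHL-8 control replicate 2 (adjusted p = 0.0593). The constitutive form HMOX2 moved the same way in both lines, with 6.95, 7.12 and 7.15 FPKM in SU-DHL-8 with morusinol, against 14.4, 14.9 and 15.1 FPKM in controls. For Farage, HMOX2 was 6.69, 6.497 and 5.96 FPKM with morusinol, against 13.1, 12.1 and 13.1 FPKM in controls. Its changes of -0.97 ± 0.047 (adjusted p = 5.6e-08) in SU-DHL-8 and -0.90 ± 0.047 (adjusted p = 1.6e-07) in Farage came without overlap, and treated libraries of both lines lay between 5.96 and 7.15 FPKM. HMOX2 overlaps NMRAL1 on the opposite strand, which reached 15.9 FPKM.

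BLVRB, a biliverdin and flavin reductase, averaged 8.33 ± 0.522 FPKM in Farage with morusinol and 5.22 ± 0.925 FPKM in controls, a rise of 0.60 ± 0.16 (adjusted p = 0.0119), and was not called in SU-DHL-8 (-0.11 ± 0.16, adjusted p = 0.639). FTL, the ferritin light chain that stores iron with FTH1, was the most abundant gene of the set in every group, with 337 ± 15.5 FPKM in SU-DHL-8 with morusinol and 348 ± 18.2 FPKM in controls, and 1096 ± 24.6 FPKM in Farage with morusinol and 1041 ± 63.8 FPKM in controls. It was not called in either line (-0.05 ± 0.055, adjusted p = 0.563 in SU-DHL-8, 0.08 ± 0.055, adjusted p = 0.31, in Farage). FTH1, the heavy chain with the ferroxidase site, had 38.1, 36.7 and 34.6 FPKM in Farage with morusinol, against 23.1, 21.6 and 18.1 FPKM in controls, a rise of 0.78 ± 0.14 (adjusted p = 8.9e-04). In SU-DHL-8 FTH1 had 13.2, 11.99 and 13.1 FPKM with morusinol, against 8.70, 7.77 and 12.1 FPKM in controls, where the highest control lay above the lowest treated library. That rise of 0.41 ± 0.14 (adjusted p = 0.0306) was the only call among the 30 in SU-DHL-8 with overlapping groups. It was lost after rescaling to TPM (adjusted p = 0.0841), under 2 other settings, and without SU-DHL-8 morusinol 1 or 3 or SU-DHL-8 control 1 or 2 (adjusted p = 0.0773 to 0.116). The 25 processed copies of FTH1 in the table summed, as group means, to 12.4 FPKM in SU-DHL-8 with morusinol and 10.4 FPKM in its controls, where the gene itself averaged 12.8 and 9.54 FPKM. In Farage the copies summed to 19.9 FPKM with morusinol and 15.4 FPKM in controls, and the gene averaged 36.5 and 20.9 FPKM. The level of FTH1 is therefore uncertain, most of all in SU-DHL-8.

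Summed over the 41 genes, FPKM was 1330.1 to 1352 in SU-DHL-8 with morusinol, against 2009 to 2080.1 in its controls. The sum was 2661 to 2817 in Farage with morusinol, against 2850 to 3106 in its controls. FTL made up 25.1% of the sum in SU-DHL-8 with morusinol, against 17.02% in its controls, and 39.9% in Farage with morusinol, against 34.7% in its controls. For FPKM as deposited, sums did not overlap between treated and control libraries of either line. In Farage the gap was narrow, 2817 against 2850, and is not read as a fall. The sums were not rescaled to library totals, which were 346099 to 372328 in Farage with morusinol and 350475 to 375021 in its controls.

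**Figure D3:**
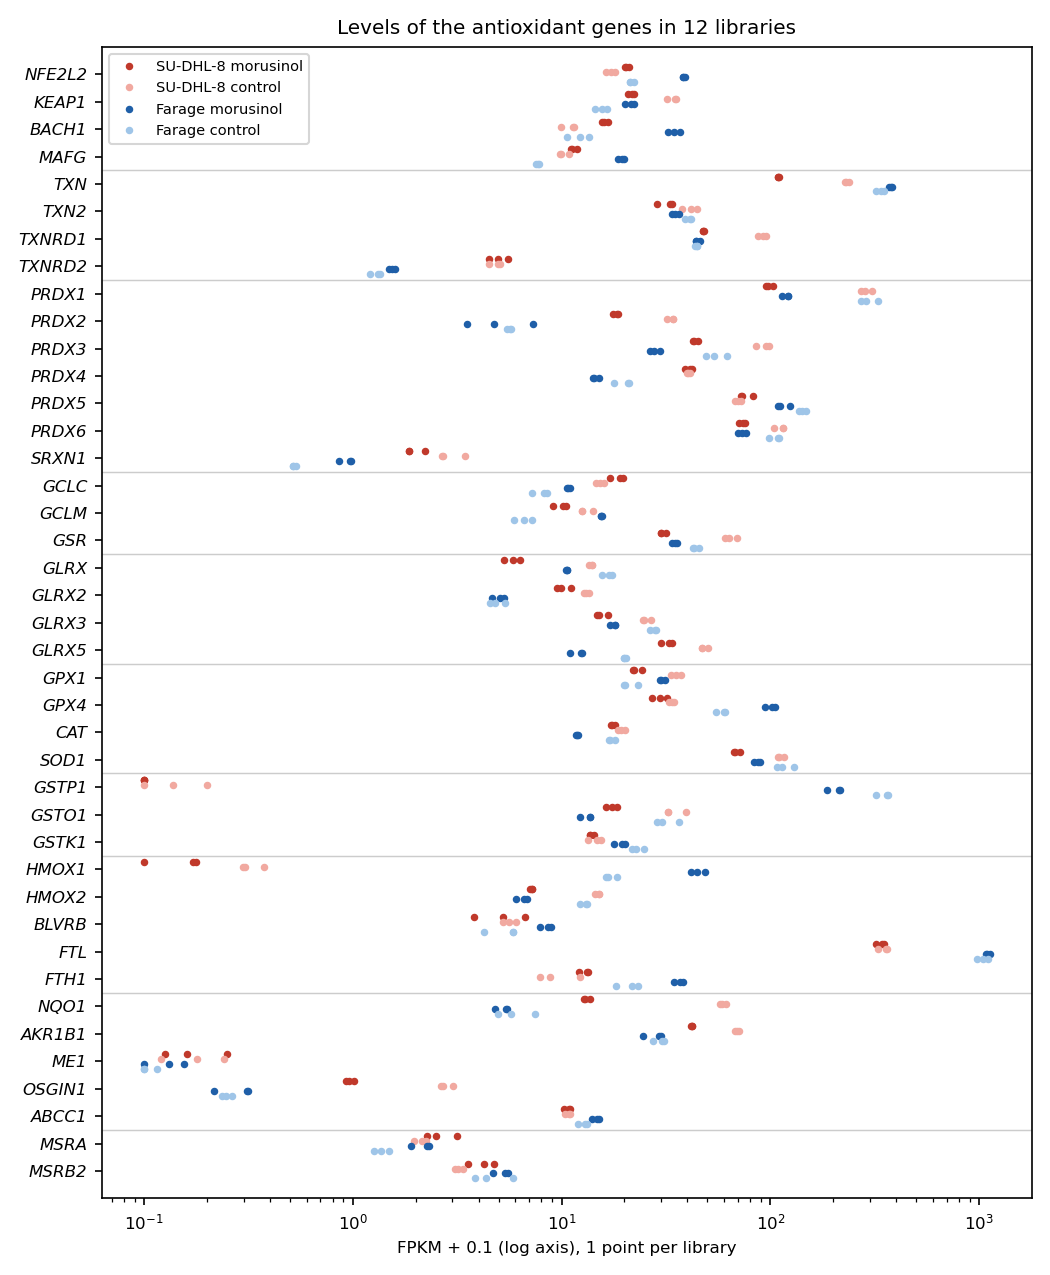
FPKM + 0.1 of each gene in the 4 groups on a log10 axis, ordered by role, with a point per library. Values of 0 are drawn at 0.1. FTL is highest in each group, GSTP1 is among the most abundant in Farage while listed at 0 in all SU-DHL-8 libraries with morusinol, and HMOX1 is above 16 FPKM in Farage and under 0.3 FPKM in SU-DHL-8.

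NQO1 (chr16:69706996-69726951, minus strand), the quinone reductase often used as a readout of NRF2, showed the widest fall of the set. It had 13.6, 12.6 and 12.8 FPKM in SU-DHL-8 with morusinol, against 58.8, 60.9 and 57.1 FPKM in controls, a mean 4.53-fold lower (-2.10 ± 0.11, adjusted p = 8.0e-08). Farage held far less NQO1, with 5.36, 5.30 and 4.71 FPKM with morusinol, against 4.87, 5.61 and 7.37 FPKM in controls. Those groups overlapped, and NQO1 was not called there (-0.17 ± 0.11, adjusted p = 0.237), although it was without Farage control replicate 1, the lowest control (-0.28, adjusted p = 0.0363). OSGIN1, a growth inhibitor named for its response to oxidative stress, had 0.913, 0.832 and 0.860 FPKM in SU-DHL-8 with morusinol, against 2.94, 2.55 and 2.59 FPKM in controls. These groups did not overlap, but the gene passed the filter only through the higher of them, so no test is given. In Farage OSGIN1 stayed under 0.3 FPKM, with 0.213, 0.115 and 0.210 FPKM with morusinol, against 0.147, 0.136 and 0.163 FPKM in controls.

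AKR1B1, aldose reductase, averaged 41.8 ± 0.27 FPKM in SU-DHL-8 with morusinol and 69.4 ± 1.52 FPKM in controls, a change of -0.72 ± 0.068 (adjusted p = 9.0e-06), and was not called in Farage (-0.09 ± 0.068, adjusted p = 0.348). ABCC1, an exporter of glutathione conjugates, rose slightly in Farage (0.19 ± 0.047, adjusted p = 0.009) and had -0.001 ± 0.047 (adjusted p = 1) in SU-DHL-8. Methionine sulfoxide reductases repair oxidised methionine. MSRA averaged 2.06 ± 0.224 FPKM in Farage with morusinol and 1.27 ± 0.112 FPKM in controls, a rise of 0.43 ± 0.10 (adjusted p = 0.0058). In SU-DHL-8 the values of MSRA (0.22 ± 0.10, adjusted p = 0.0979) and of the mitochondrial MSRB2 (0.30 ± 0.13, adjusted p = 0.0773) were above controls in every library but were not called. MSRB2 was called higher there without SU-DHL-8 morusinol replicate 3 or Farage control replicate 3 (adjusted p = 0.0232 to 0.0392), and MSRA without SU-DHL-8 morusinol replicate 2 (adjusted p = 0.0448).

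Whether the lines responded differently was tested by subtracting the response of SU-DHL-8 from that of Farage. In this comparison 20 of the 40 genes were called higher, meaning a more positive response in Farage, and 4 lower, against 17.3% and 17.6% of all genes tested (34.9% in either direction). At 5 FPKM or more the shares were 50% and 11.1% of 36 antioxidant genes, against 29.8% and 21.6% of all 8908 genes. HMOX1 among these higher calls and GSTP1 among the lower ones reached 5 FPKM only in Farage. These 36 genes are not the same as the 36 at 1 FPKM or more in every library. The median difference was 0.32, against -0.07 for all genes. After rescaling to TPM, 62.5% of the calls over all genes were higher, against 49.6% as reported here. Among the 36 genes at 1 FPKM or more in every library, the widest differences were those of NQO1 (1.93 ± 0.15, adjusted p = 6.8e-06), GCLM (1.504 ± 0.104, adjusted p = 3.1e-06), TXN (1.24 ± 0.050, adjusted p = 1.4e-07) and GPX1 (1.12 ± 0.092, adjusted p = 1.1e-05). MAFG (1.09 ± 0.065, adjusted p = 1.2e-06), KEAP1 (1.07 ± 0.082, adjusted p = 6.3e-06), GPX4 (0.95 ± 0.093, adjusted p = 3.2e-05) and TXNRD1 (0.95 ± 0.053, adjusted p = 7.9e-07) followed. The differences were made up in different ways, since NQO1 and TXNRD1 were called in SU-DHL-8 and not in Farage, while GCLM, KEAP1, TXN and GPX1 were called in both, in opposite directions. HMOX1, SRXN1, OSGIN1 and GSTP1, which count in these totals (3 higher and, for GSTP1, 1 lower), are left out of the order because each lay under 1 FPKM in every library of 1 line.

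All 4 genes that control NRF2 had a more positive response in Farage, with NFE2L2 at 0.57 ± 0.055 (adjusted p = 3.2e-05) and BACH1 at 0.93 ± 0.12 (adjusted p = 1.9e-04). The 4 genes with a more negative one were PRDX4, PRDX5, CAT (-0.39 ± 0.055, adjusted p = 4.0e-04) and GSTP1. The GSTP1 call rests on SU-DHL-8 libraries near 0, and it was lost with a pseudocount of 0.1 in place of 1. The calls for PRDX2 (0.70 ± 0.24, adjusted p = 0.0413), SOD1 (0.26 ± 0.090, adjusted p = 0.0447) and BLVRB (0.71 ± 0.23, adjusted p = 0.0339) were weak, and all 3 were lost with no filter beyond a value above 0 (adjusted p = 0.0934 for PRDX2, 0.0959 for SOD1 and 0.0793 for BLVRB). With median-ratio scaling those of PRDX2 (0.0523) and SOD1 (0.0922) were lost as well. PRDX2 lost its call in 10 of 12 fits without 1 library, all except those without Farage morusinol 2 or 3 (adjusted p = 0.06 to 0.0803). SOD1 lost it in 9, all except those without SU-DHL-8 morusinol 2, Farage morusinol 3 or Farage control 3 (adjusted p = 0.0561 to 0.0977). BLVRB lost it in 7, those without SU-DHL-8 morusinol 1 or 3, SU-DHL-8 control 1 or 3, Farage morusinol 1 or 2 or Farage control 1 (adjusted p = 0.0506 to 0.0722).

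The control libraries of the lines differed in most of these genes. Farage controls minus SU-DHL-8 controls gave 12 genes higher, GSTP1 and HMOX1 among them, and 20 lower, OSGIN1 and SRXN1 among them, of 40, against 34.5% and 29.6% of all genes tested (64.1% in either direction), with a median of -0.13, against 0.08 for all genes. Values of the 2 control groups did not overlap for 12 genes higher and 20 lower in Farage, against 37.4% and 32.1% of all genes. At 5 FPKM or more 33.3% of 36 antioxidant genes were higher and 44.4% lower, close to the 37.0% and 42.1% of all 8908 genes. The higher ones include GSTP1, HMOX1 and MSRB2, which reached 5 FPKM only in Farage, so these calls were in part required by that filter. These controls also enter both treatment responses. GSTP1 was at 349.8 ± 26.8 FPKM in Farage controls and 0.046 ± 0.0503 FPKM in SU-DHL-8 controls, and HMOX1 at 16.98 ± 1.10 FPKM and, in SU-DHL-8, 0.226 ± 0.042 FPKM. OSGIN1 was at 0.148 ± 0.0137 FPKM in Farage controls and 2.69 ± 0.211 FPKM in SU-DHL-8 controls, and SRXN1 at 0.424 ± 0.0109 FPKM and, in SU-DHL-8, 2.85 ± 0.441 FPKM. FTL was 2.99-fold higher in Farage (1.58 ± 0.055, adjusted p = 1.3e-09), FTH1 had 1.07 ± 0.14 (adjusted p = 3.9e-05), PRDX5 had 1.009 ± 0.062 (adjusted p = 1.1e-07), and GPX4 had 0.79 ± 0.065 (adjusted p = 1.4e-06). Lower in Farage were NQO1 (-3.12 ± 0.11, adjusted p = 9.4e-10), PRDX2 (-2.40 ± 0.17, adjusted p = 3.2e-07), TXNRD2 (-1.39 ± 0.075, adjusted p = 3.8e-08) and GLRX2 (-1.28 ± 0.070, adjusted p = 4.5e-08). PRDX1 (0.04 ± 0.069, adjusted p = 0.669), PRDX6 (-0.08 ± 0.056, adjusted p = 0.243) and GSTO1 (-0.12 ± 0.10, adjusted p = 0.311) were among the 8 with no call. HMOX2 (-0.20) and CAT (-0.15), both called lower, lost their calls after rescaling to TPM, a scaling that moved the median of all genes from 0.08 to 0.19.

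Other genes of the pathway were taken from 8 lists of 125 genes that share no gene with the set. Their counts stand against 25.1% of all genes tested higher and 21.6% lower in SU-DHL-8, and 21.9% and 21.2% in Farage. At 5 FPKM or more these shares were 30.8% and 36.3% in SU-DHL-8, and 33.1% and 30.5% in Farage. The list of other NRF2 control genes had 5 called higher and 4 lower of 11 tested in SU-DHL-8, and 4 and 3 in Farage. NFE2L1, an NRF2 relative that controls proteasome genes, averaged 61.5 ± 0.600 FPKM in SU-DHL-8 with morusinol and 18.3 ± 1.47 FPKM in controls, and 73.3 ± 3.10 FPKM in Farage with morusinol and 17.95 ± 0.893 FPKM in controls. It rose in both lines (1.70 ± 0.057, adjusted p = 5.5e-09 in SU-DHL-8, 1.97 ± 0.057, adjusted p = 3.7e-09, in Farage). SQSTM1, the autophagy receptor p62 that binds KEAP1, rose by 0.97 ± 0.067 (adjusted p = 8.5e-07) in SU-DHL-8 and 1.30 ± 0.067 (adjusted p = 1.6e-07) in Farage. BACH2, the B cell relative of BACH1, rose by 1.45 ± 0.052 (adjusted p = 8.8e-09) in SU-DHL-8, from 21.8 ± 0.465 FPKM in controls to 61.2 ± 2.23 FPKM. In Farage BACH2 rose by 1.42 ± 0.052 (adjusted p = 1.6e-08), from 0.142 ± 0.0183 FPKM in controls to 2.06 ± 0.209 FPKM. At these Farage levels the added 1 FPKM shrinks the change, so the 2 log2 fold changes are not read as equal responses. RBX1, a subunit of the ligase that acts with KEAP1, fell in both lines (-0.91 ± 0.041, adjusted p = 3.3e-08 in SU-DHL-8, -0.60 ± 0.041, adjusted p = 1.1e-06, in Farage).

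The NADPH supply list had 4 called higher and 7 lower of 13 in SU-DHL-8, and 3 and 8 in Farage. Of all genes, 25.1% were higher and 21.6% lower in SU-DHL-8, and 21.9% and 21.2% in Farage. IDH1, cytosolic isocitrate dehydrogenase, averaged 49.7 ± 2.31 FPKM in SU-DHL-8 with morusinol and 11.6 ± 0.872 FPKM in controls (2.01 ± 0.059, adjusted p = 2.4e-09), while Farage had -0.11 ± 0.059 (adjusted p = 0.183), and the difference was -2.11 ± 0.083 (adjusted p = 1.4e-07). The folate enzyme MTHFD2 rose by 0.68 ± 0.051 (adjusted p = 1.5e-06) in SU-DHL-8 and 1.36 ± 0.051 (adjusted p = 1.7e-08) in Farage, and MTHFD1L by 0.38 ± 0.034 (adjusted p = 6.6e-06) and, in Farage, 1.013 ± 0.034 (adjusted p = 8.6e-09). NADK, which makes NADP, fell, with -0.47 ± 0.056 (adjusted p = 5.2e-05) in SU-DHL-8 and -0.78 ± 0.056 (adjusted p = 1.7e-06) in Farage. Other glutathione enzymes had 4 called higher and 4 lower of 16 in SU-DHL-8, which is 25% in each direction and near the share of all genes, and 6 and 4 in Farage. SLC7A11, the cystine importer that feeds glutathione synthesis, averaged 19.1 ± 1.44 FPKM in SU-DHL-8 with morusinol and 5.77 ± 0.0723 FPKM in controls, and 44.1 ± 3.10 FPKM in Farage with morusinol and 7.05 ± 0.363 FPKM in controls. It rose in both lines, by 1.57 ± 0.063 (adjusted p = 1.7e-08) in SU-DHL-8 and 2.49 ± 0.063 (adjusted p = 1.5e-09) in Farage, with a difference of 0.92 ± 0.088 (adjusted p = 3.1e-05). GSTA4, which conjugates products of lipid peroxidation, rose in Farage (1.49 ± 0.13, adjusted p = 5.1e-06), and GLO1, glyoxalase 1, fell in SU-DHL-8 (-1.12 ± 0.073, adjusted p = 5.5e-07) and Farage (-0.72 ± 0.073, adjusted p = 2.1e-05), as did ESD, a glutathione-dependent esterase (-0.46 ± 0.063, adjusted p = 1.3e-04 in SU-DHL-8, -0.45 ± 0.063, adjusted p = 2.0e-04, in Farage).

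Among other thioredoxin-fold and methionine sulfoxide genes 5 were called higher and 4 lower of 12 in SU-DHL-8, and 5 and 3 in Farage. The shares of all genes were 25.1% higher and 21.6% lower in SU-DHL-8, and 21.9% and 21.2% in Farage. TXNIP, which binds and inhibits thioredoxin, rose by 0.44 ± 0.054 (adjusted p = 5.9e-05) in SU-DHL-8 and 1.29 ± 0.054 (adjusted p = 3.5e-08) in Farage, where it averaged 44.8 ± 0.0978 FPKM with morusinol and 17.7 ± 0.712 FPKM in controls. TXNDC17, a cytosolic thioredoxin-like protein, fell in SU-DHL-8 (-1.29 ± 0.057, adjusted p = 3.1e-08) and Farage (-1.27 ± 0.057, adjusted p = 5.4e-08). TXNDC11 rose in SU-DHL-8 (1.25 ± 0.065, adjusted p = 1.1e-07), and the selenoprotein MSRB1 fell there (-0.80 ± 0.11, adjusted p = 1.6e-04). Of other oxidant removal genes 6 were called higher and 2 lower of 9 in SU-DHL-8, and 5 and 2 in Farage. SESN2, a stress-induced sestrin, averaged 34.8 ± 1.61 FPKM in SU-DHL-8 with morusinol and 7.42 ± 1.03 FPKM in controls, and 90.4 ± 4.13 FPKM in Farage with morusinol and 6.69 ± 0.0661 FPKM in controls, with rises of 2.10 ± 0.076 (adjusted p = 8.8e-09) in SU-DHL-8 and 3.57 ± 0.076 (adjusted p = 4.3e-10) in Farage. SESN3 rose in SU-DHL-8 (0.46 ± 0.068, adjusted p = 2.2e-04) and in Farage (0.86 ± 0.068, adjusted p = 3.1e-06), CCS, the copper chaperone of SOD1, rose in SU-DHL-8 (0.48 ± 0.084, adjusted p = 7.8e-04), and PARK7, a redox-sensitive chaperone, fell in SU-DHL-8 (-0.45 ± 0.054, adjusted p = 5.1e-05) and Farage (-0.37 ± 0.054, adjusted p = 2.6e-04). Other NRF2 targets had 5 called higher and 2 lower of 10 in SU-DHL-8, and 5 and 1 in Farage. UGDH, which makes UDP-glucuronate, rose by 1.17 ± 0.071 (adjusted p = 3.2e-07) in SU-DHL-8 and 1.15 ± 0.071 (adjusted p = 5.9e-07) in Farage, HTATIP2 rose in Farage (0.66 ± 0.071, adjusted p = 3.0e-05), the exporter ABCC4 fell in SU-DHL-8 (-0.55 ± 0.055, adjusted p = 1.2e-05) and in Farage (-0.24 ± 0.055, adjusted p = 0.0049), and AKR1A1, an aldehyde reductase, rose in SU-DHL-8 (0.41 ± 0.075, adjusted p = 0.0011).

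In the iron handling list 1 was called higher and 2 lower of 7 in SU-DHL-8, and 2 and 3 in Farage. The SU-DHL-8 share of 42.9% in either direction was under the 46.8% of all genes. TFRC, the transferrin receptor that brings iron into cells, averaged 10.98 ± 0.810 FPKM in SU-DHL-8 with morusinol and 72.4 ± 3.47 FPKM in controls, and 112 ± 1.10 FPKM in Farage with morusinol and 96.7 ± 2.96 FPKM in controls. It fell in SU-DHL-8 (-2.62 ± 0.052, adjusted p = 2.2e-10) and rose in Farage (0.21 ± 0.052, adjusted p = 0.007), a difference of 2.83 ± 0.073 (adjusted p = 1.1e-08). The iron chaperones PCBP1 and PCBP2 moved apart in both lines, with PCBP1 at -0.70 ± 0.091 (adjusted p = 9.1e-05) and PCBP2 at 0.29 ± 0.034 (adjusted p = 4.4e-05) in SU-DHL-8, and PCBP1 at -0.53 ± 0.091 (adjusted p = 8.3e-04) and PCBP2 at 0.15 ± 0.034 (adjusted p = 0.0043) in Farage. IREB2, an iron regulatory protein, fell in Farage (-0.22 ± 0.054, adjusted p = 0.0073). The selenoprotein list has products that include the machinery that makes TXNRD1 and the glutathione peroxidases. It had 6 called higher and 4 lower of 15 in SU-DHL-8, and 5 and 4 in Farage. That is 40% and 26.7% in SU-DHL-8, against 25.1% and 21.6% of all genes. In Farage it is 33.3% and 26.7%, against 21.9% and 21.2%. SEPHS2, which makes the selenium donor, averaged 102 ± 0.161 FPKM in SU-DHL-8 with morusinol and 37.7 ± 2.65 FPKM in controls, and 46.2 ± 4.08 FPKM in Farage with morusinol and 69.6 ± 6.05 FPKM in controls, a rise of 1.42 ± 0.077 (adjusted p = 1.4e-07) in SU-DHL-8 and a change of -0.58 ± 0.077 (adjusted p = 1.4e-04) in Farage. SELENOS and SELENOK, selenoproteins of the endoplasmic reticulum, rose in both lines, SELENOS by 1.55 ± 0.062 (adjusted p = 1.8e-08) in SU-DHL-8 and 1.15 ± 0.062 (adjusted p = 2.2e-07) in Farage, and SELENOK by 1.19 ± 0.068 (adjusted p = 2.1e-07) and, in Farage, 0.95 ± 0.068 (adjusted p = 1.6e-06). SEPSECS, which forms selenocysteine on its transfer RNA, rose as well (0.75 ± 0.076, adjusted p = 1.6e-05 in SU-DHL-8, 0.40 ± 0.076, adjusted p = 0.0015, in Farage).

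**Figure D4:**
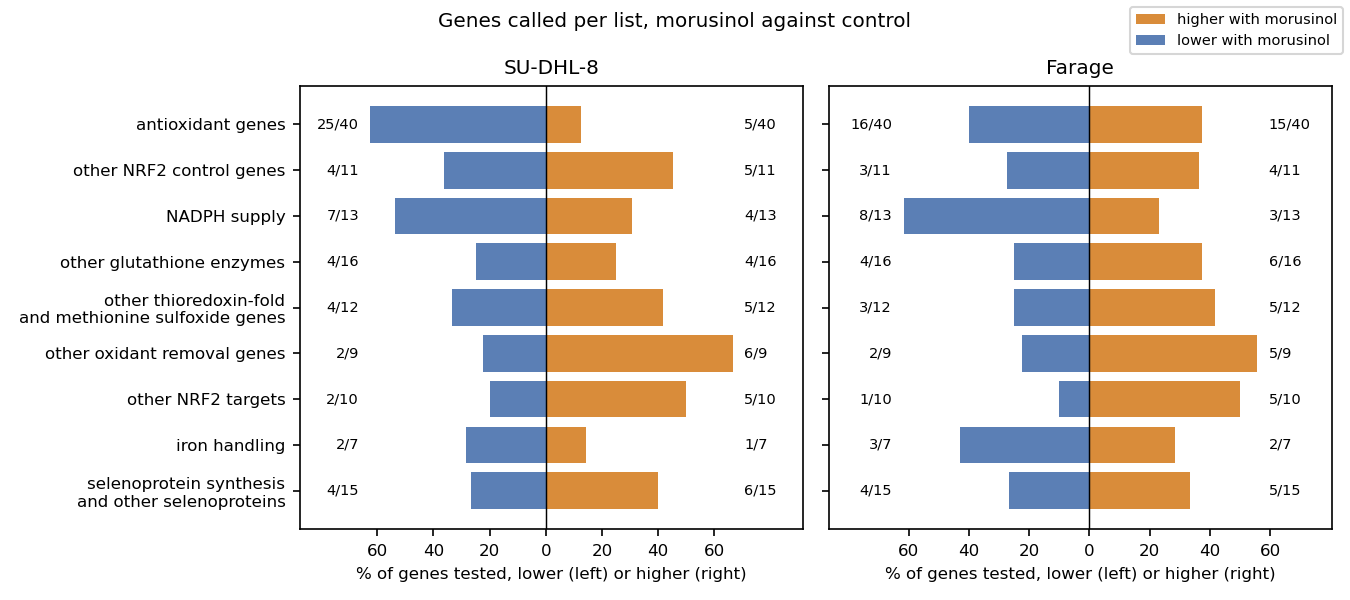
Share of tested genes called higher (right of 0) and lower (left of 0) with morusinol in the antioxidant gene set and 8 other pathway lists, with SU-DHL-8 and Farage side by side and the number called over the number tested printed at each bar. In SU-DHL-8 25 of 40 antioxidant genes are lower and 5 higher, while 6 of 9 other oxidant removal genes are higher.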

How the data were processed

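RNA was measured in 12 libraries (3 per group); per the labels' protocols, a SMARTer mRNA-seq kit was used on total RNA. The authors deposited FPKM, with 1 column per library; no counts were used. The sources used here do not name the aligner or counter. The submitters' processing notes name mouse builds (GRCm38, mm10), yet 58297 of 61466 gene identifiers (94.8%) match human GENCODE release 29 on GRCh38, the build of the gene positions. Columns marked n were taken as control. The 13 mitochondrial coding genes were at 0. No pair of libraries was identical.

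Depth was estimated from the steps of low values (50.9% to 53.0% of values under 50 fragments were whole within 0.02). Genes at 1 FPKM or more in at least 3 libraries were tested on log2(FPKM + 1) with limma 3.58.1 (R 4.3.3; 4 group means over all libraries, trend and robust prior, Benjamini-Hochberg adjustment, two-sided). Plots used Python 3.11.15, pandas 2.3.3 and matplotlib 3.10.9. The procedure was tested on simulated data.

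The genes, their roles and the other lists were chosen with earlier results of these data known. Values in every library are given for genes at 5 FPKM or more in the higher group that were called without overlap and were among the 10 widest changes in a line, or, at any level, that were called in opposite directions or had 1 of the 10 widest differences between lines. Up to 4 genes of each other list were named, by the size of their change.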

Additional observations from a re-analysis of the deposited data

Results flagged for a closer look

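The response to morusinol differed between Farage and SU-DHL-8 by the test of the difference itself in 24 of the 40 genes (60%, against 34.9% of all genes tested). At 5 FPKM or more, 50% of 36 antioxidant genes were called higher and 11.1% lower, against 29.8% and 21.6% of all genes at that level. Of the 24, HMOX1, OSGIN1, SRXN1 and GSTP1 passed the filter through 1 line alone. From the 24, 11 are given here because they were called in opposite directions or had 1 of the 10 widest differences. The groups of 3 libraries are too small for a test of single outlying libraries.

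The log2 difference, Farage response minus SU-DHL-8 response, was 1.93 for NQO1, 1.58 for HMOX1, 1.504 for GCLM, 1.24 for TXN, 1.12 for GPX1, 1.09 for MAFG and 1.07 for KEAP1. It was 1.02 for OSGIN1, 0.95 for GPX4, 0.95 for TXNRD1 and 0.78 for SRXN1. In the 8 of them at 1 FPKM or more in every library, the change with morusinol was more positive in Farage. The signs for HMOX1, OSGIN1 and SRXN1 are not counted in this. Of the 7 genes called in opposite directions, the 2 separate calls of GCLM, GPX1, KEAP1, SRXN1 and TXN (5 genes) held under every alternative in which the gene was tested. Those of GPX4 and HMOX1 did not, since the SU-DHL-8 call was lost in some of them. HMOX1 was under 0.3 FPKM in every SU-DHL-8 library, OSGIN1 was under 0.3 FPKM and SRXN1 under 1 FPKM in every Farage library, and all 3 passed the filter on low values through the other line alone. Their values are fitted differences on the log2(FPKM + 1) scale and are not read as sizes of a difference between the lines.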

How the results depend on the processing

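No called gene changed sign under any alternative. The median log2 fold change of the genes in SU-DHL-8, -0.37 as reported, was -0.53 with a pseudocount of 0.1, -0.50 after rescaling to TPM, -0.35 with median-ratio scaling and -0.30 with protein-coding sum scaling. The 5 genes called higher there were 3 with no filter, 1 with TPM, 8 with protein-coding sum scaling and 3 when the compared groups were fitted alone. In Farage the median of 0.02 was -0.11 at 5 FPKM or more and 0.0666 with protein-coding sum scaling. The median difference between the responses, 0.32, was 0.36 with a pseudocount of 0.1 and 0.44 with TPM. Between the controls the median of -0.13 was -0.08 at 5 FPKM or more, -0.0403 with TPM, -0.0535 with median-ratio scaling and -0.0706 with protein-coding sum scaling, and the 11271 genes called were 7043 at 5 FPKM or more, where fewer genes are tested. The filter at 5 FPKM leaves the fold change of each gene as it was, so the medians there differ because they are taken over 36 genes and not 40. The cause of the remaining shifts was not tested.

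Leaving out each library in turn gave 3 to 6 genes called higher and 22 to 25 lower in SU-DHL-8, with a median of -0.40 to -0.34, and 15 higher and 15 to 16 lower in Farage, with a median of -0.0062 to 0.025. The difference between responses had 17 to 21 higher and 4 lower, with a median of 0.28 to 0.33, and the controls 12 to 13 higher and 20 lower, with a median of -0.20 to -0.11. Over all genes it gave 7351 to 8272 calls for the SU-DHL-8 response, 6617 to 7553 for that of Farage, 5364 to 5954 for their difference and 10510 to 11339 between the controls.

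Libraries with the same replicate number did not deviate together (correlation -0.079 to 0.033, against -0.096 to 0.115 for different numbers). With 3 libraries per group this cannot show whether they were set up as pairs. A fit with the replicate number as a block called 7619 genes for the SU-DHL-8 response, 6853 for that of Farage, 5110 for their difference and 11145 between the controls, against 8216, 7567, 6126 and 11271 without it. In the block fit the difference between responses was not called for PRDX2 (adjusted p = 0.0663), SOD1 (0.0921) and BLVRB (0.0773). The precision of single values is limited by 3 libraries per group and by depth, which could only be estimated; counting intervals are therefore left out.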
